A study of Mus musculus with 8 samples.

Results

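The stretch of mouse chromosome 5 that holds the receptor genes Pdgfra, Kit and Kdr, and the gene of the KIT ligand, Kitl, on chromosome 10, were examined in peak lists of open chromatin from 4 populations of marrow progenitors. The Kit neighbourhood was taken by position, from 50 kb before Pdgfra to 50 kb after Kdr (mm10, chr5:75101322-76029072, 927.8 kb), and Kitl with 20 kb on each side (chr10:99995615-100120416, 124.8 kb). When the F-Seq peaks of all 8 libraries were merged where they overlapped, 131 regions lay in the Kit neighbourhood and 8 at Kitl, which makes 139 of 207770 regions in the genome. Of the 139, 93 were called in at least 2 libraries and could be tested, 13 were called in all 8, and 46, all in the Kit neighbourhood, were called in a single library. Regions called in all 8 libraries made up 9.16% of the Kit neighbourhood and 19.1% of all regions, and those of a single library 35.1% and 40.2%.

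KIT, PDGFRA and KDR are receptor tyrosine kinases encoded side by side. KIT is the receptor of stem cell factor, the product of Kitl, and carries survival and growth signals in blood stem cells, progenitors and mast cells, while PDGFRA, a receptor of platelet-derived growth factors, is known from mesenchymal cells and KDR, a receptor of VEGF, from endothelium and its precursors. Stem cell factor itself is supplied in marrow mainly by stromal and endothelial cells. Kit is controlled in blood cells by elements spread over long distances around the gene, several of them bound by the transcription factors GATA1 and GATA2.

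ATAC-seq, in which a transposase cuts and tags open DNA, was performed on primary marrow cells of wild-type C57BL/6 mice, 40000 to 50000 cells per preparation. The transposase was TDE1, used with digitonin. All populations were sorted as KIT+ CD16/32-, with 2 libraries each. C2 was CD34bright CD41+ CD9+. C18 was CD34dim CD41+ CD9+ with dim CD48, C10 CD34dim CD41+ CD9+ with bright CD48, and C13 CD34dim CD41- CD9-. The labels give neither age nor sex, nor whether a population's libraries are of separate animals. The p-values therefore hold for the spread between libraries, and that spread may be technical. The series text names partly other clusters than the sample titles, and the titles' names are kept, since they carry the sorted phenotype.

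Each library had 1 F-Seq list of 100000 peaks and 1 HOMER list of 150-base peaks. A rank is a peak's place in the F-Seq list of its own library, with low ranks for strong peaks, and since all F-Seq lists have the same length the ranks stand on 1 scale. A rank says where a peak stands in its list, not how open the DNA is, and the read depth of the libraries is unknown. The C18 libraries stood apart, with a median F-Seq peak width of 491 and 618 bases against 691 to 800 in the other 6 libraries, and with 72379 and 83548 HOMER peaks against 171712 to 260118. What part this has in the differences from C18 was not tested. Calls that are lost without the C18 libraries are named for the loci and regions where that was checked. An F-Seq peak lay on the start site of 5 of 5 progenitor genes (Kit, Cd34, Myb, Gata2 and Ptprc) in each of the 8 libraries.

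The start sites of the 4 genes differed in whether a peak lay on them, and their promoters are shown for that reason: Kit and Kitl carried a peak in all 8 libraries, Kdr a weak one in 6, and Pdgfra none. A start site was counted as carrying a peak when the peak overlapped these 300 bases. For Kit the RefSeq table holds 2 promoters, and only the first is printed. Each sequence runs 5′ to 3′ from 250 bases before to 50 bases after the start site of the RefSeq table (GRCm38.p6, the assembly of mm10). Capitals mark matches to the motifs searched on both strands, which were those of GATA factors (AGATAA or AGATAG or TGATAA or TGATAG), RUNX (TGTGGT), ETS (AGGAAG or CGGAAG), E-box (CAGCTG or CAGATG), AP-1 (TGACTCA) and GC box (GGGCGG).
Kit (chr5:75574737-75575036, plus strand): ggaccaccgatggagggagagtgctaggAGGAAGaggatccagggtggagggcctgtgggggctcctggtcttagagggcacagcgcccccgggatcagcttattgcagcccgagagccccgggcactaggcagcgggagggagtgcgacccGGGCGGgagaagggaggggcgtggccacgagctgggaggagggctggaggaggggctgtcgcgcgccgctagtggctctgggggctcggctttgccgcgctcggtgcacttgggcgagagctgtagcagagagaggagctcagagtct
Kitl (chr10:100015571-100015870, plus strand): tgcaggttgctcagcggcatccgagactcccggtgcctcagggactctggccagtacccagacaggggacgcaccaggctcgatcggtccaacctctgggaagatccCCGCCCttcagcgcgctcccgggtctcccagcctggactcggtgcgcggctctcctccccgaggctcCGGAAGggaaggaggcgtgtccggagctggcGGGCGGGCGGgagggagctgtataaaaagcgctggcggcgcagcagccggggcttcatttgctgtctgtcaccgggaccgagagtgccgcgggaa
Kdr (chr5:75978406-75978705, minus strand): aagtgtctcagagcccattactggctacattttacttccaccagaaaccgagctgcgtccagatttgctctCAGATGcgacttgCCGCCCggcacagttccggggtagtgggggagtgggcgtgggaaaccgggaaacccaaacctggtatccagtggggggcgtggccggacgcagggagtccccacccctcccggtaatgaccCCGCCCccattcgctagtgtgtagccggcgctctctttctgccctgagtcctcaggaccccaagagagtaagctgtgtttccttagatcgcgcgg
Pdgfra (chr5:75152001-75152300, plus strand): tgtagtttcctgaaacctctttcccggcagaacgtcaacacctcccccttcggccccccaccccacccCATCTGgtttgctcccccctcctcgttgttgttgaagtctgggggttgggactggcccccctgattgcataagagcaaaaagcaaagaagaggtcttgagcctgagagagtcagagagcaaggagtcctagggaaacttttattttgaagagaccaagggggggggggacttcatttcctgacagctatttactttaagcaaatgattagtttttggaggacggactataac

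Kit and Kitl had GC contents of 69.0% and 68.7%, with 20 and 28 CG dinucleotides. Kdr had 60.7% and 19, and Pdgfra 51.0% and 5, against a median of 52.7% and 7 over 32851 mouse promoters of the same length. The order of GC content over the 4 promoters was thus also the order from the genes with a start-site peak in every library to the gene with none, a description over 4 genes. Kit held 1 ETS match and 1 GC box, Kitl 1 ETS match and 3 GC boxes, of which 2 overlap in the run GGGCGGGCGG, Kdr 1 E-box and 2 GC boxes, and Pdgfra 1 E-box. No GATA, RUNX or AP-1 match was found in these windows. Among all promoters of the table, 46.5% held an ETS match, 35.7% a GC box, 30.6% an E-box, 29.8% a GATA match, 16.8% a RUNX match and 5.2% an AP-1 match, so none of the matches found is rare.

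The start site of Kit carried one of the strongest peaks of the neighbourhood in every library. Its F-Seq peak had rank 4803 and 4056 in C2, 4254 and 5788 in C18, 9748 and 9313 in C13, and 11121 and 8762 in C10. All 4 libraries of C2 and C18 ranked it higher than all 4 of C13 and C10. The summit of the ranked peak lay 822 bases downstream of the start site in C13 replicate 2 and 780 in C10 replicate 1. In the other libraries it lay at most 31 bases from the start site. On the log2 rank scale, where a positive value is a weaker rank, C10 lay 0.99 above C18 (SE 0.327, adjusted p = 0.03, limma across all 39641 regions called in every library, Benjamini-Hochberg). The call was lost when C18 replicate 1, C10 replicate 1 or C10 replicate 2 was left out (adjusted p up to 0.205). C13 lay 0.45 above the mean of C10 and C18 (SE 0.284, adjusted p = 0.241) and C2 0.67 below it (log2 -0.67, SE 0.284, adjusted p = 0.254), neither past the threshold of 0.05. The width of the start-site peak followed another order, with 1994 and 2074 bases in C2, 1518 and 1940 in C18, 3135 and 2843 in C13, and 1864 and 2207 in C10. C13, where the rank was weaker than in C2 and C18, had the widest peaks.

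**Figure D1:**
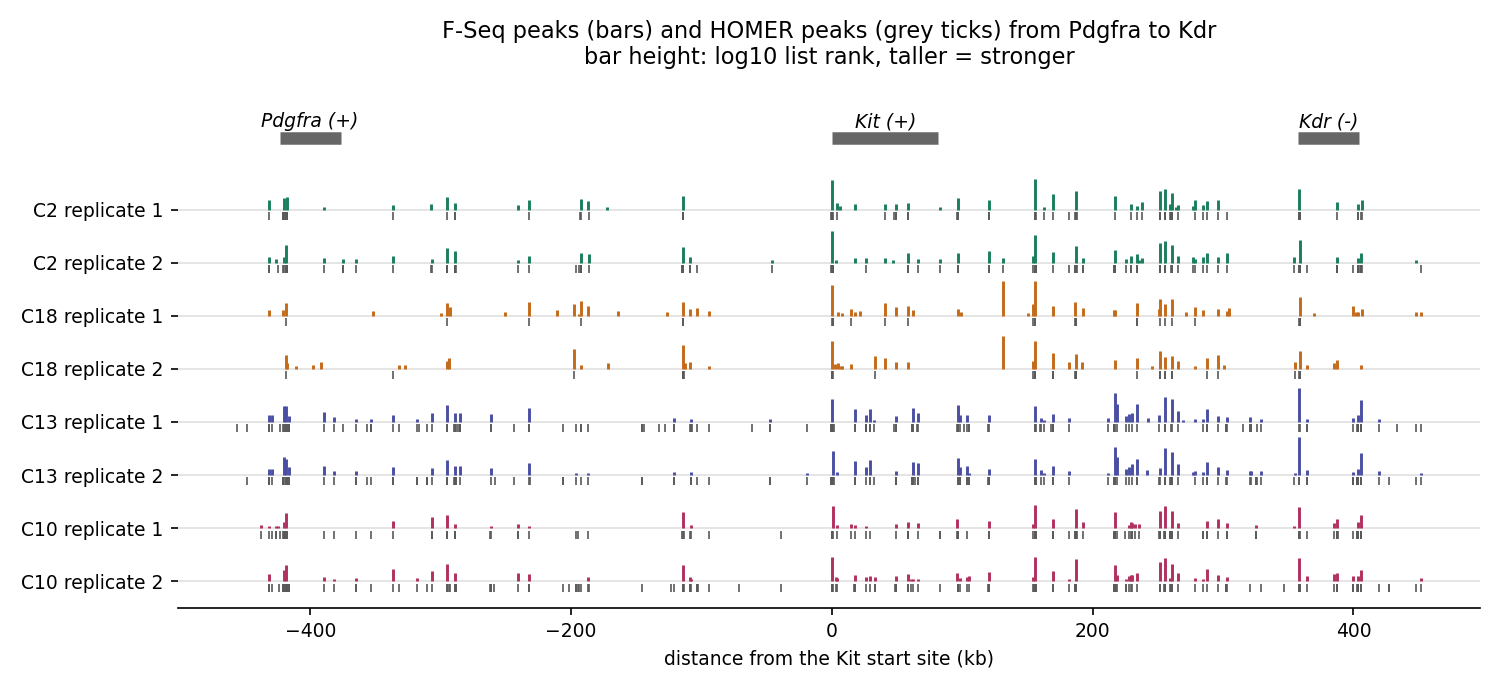
F-Seq peaks (bars, taller for a stronger rank on a log10 scale) and HOMER peaks (grey ticks below each line) of the 8 libraries along chromosome 5, by distance from the Kit start site in kb, with the 3 genes drawn above. A bar stands at the Kit start site in every library, and the C13 libraries lack the bars at -114.3 and +187.2 kb that the other 6 share.

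Most regions of the neighbourhood lay outside the 3 genes. Of the 131 regions, 8 lay in Pdgfra, 17 in Kit, 8 in Kdr and 98 in no protein-coding gene. The 276.1 kb between Kit and Kdr held 51 regions, 7 of them called in all 8 libraries. The longer stretch between Pdgfra and Kit, 376.8 kb, held 38 regions, of which 1 was called in all 8. Within Kit itself the start site was the only 1 of the 17 regions called in every library. The F-Seq lists placed 47 and 57 peaks of C2 in the neighbourhood, 60 and 50 of C18, 63 and 67 of C13, and 50 and 64 of C10. The peaks covered 57.8 ± 5.34 kb in C13 and 50.7 ± 9.13 kb in C10, against 42.1 ± 6.40 kb in C2 and 34.1 ± 0.911 kb in C18 (SD, n = 2 each, not scaled). After scaling to equal total covered length, C18 was no longer lowest. Its mean of 43.6 ± 8.32 kb then lay above that of C2 (41.7 ± 5.76 kb). C10 reached 46.6 ± 6.65 kb and C13 51.9 ± 3.69 kb. C18 replicate 1 (49.5 kb scaled) lay just above C13 replicate 1 (49.3 kb), so these populations overlapped. By number, both C13 libraries had more F-Seq peaks in the neighbourhood than the libraries of C2 and C18, while C10 replicate 2 overlapped with C13. With 2 libraries against 2, an exact permutation test cannot go below a two-sided p of 0.333, so no such test was made.

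A region far upstream of Kit, at -114.3 kb, had no peak in C13 and a peak in all 6 other libraries. This region (chr5:75459865-75461751) stands at the distance of a known upstream Kit enhancer bound by GATA factors. Its rank was 27646 and 22455 in C2, 28707 and 9579 in C18, and 20582 and 20116 in C10, and neither C13 library had an F-Seq or a HOMER peak in it. HOMER listed 2 to 4 peaks in it in each of the other 6 libraries. Its scaled covered bases in C13 were lower than the mean of C10 and C18 by a log2 difference of -2.85 (SE 0.236, adjusted p = 0.000537, limma across 124258 regions). The covered-bases scale is log2(bases + 200), which understates the change of short regions. The call was lost when either C13 library was left out (adjusted p up to 0.0537), and the difference then lay between -3.05 and -2.65 over all libraries left out in turn.

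Another 2 regions were absent from C13 alone. One lay inside Kit (chr5:75632941-75634198, summit at +58.5 kb), with rank 59332 and 43654 in C2, 41566 and 56968 in C18, and 65043 and 59717 in C10. Its log2 difference in C13 was -2.10 (SE 0.2, limma adjusted p = 0.000988), and the call was lost with the 50000 strongest peaks of each list and without either C13 library (adjusted p up to 0.702). The other lay between Kit and Kdr (chr5:75761455-75762960, summit at +187.2 kb), with rank 16561 and 19737 in C2, 28503 and 24287 in C18, and 16019 and 11498 in C10. Here the log2 difference was -3.07 (SE 0.153, limma adjusted p = 6.01e-05) and stayed past the threshold in all 15 alternatives. HOMER had no peak in C13 in any of the 3 regions, whereas over the genome 67.5% of the 2286 regions absent from C13 alone had none. These 3 were chosen after their values were seen.

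Of 15 regions of the Kit neighbourhood called in all 6 libraries of C2, C18 and C10, 3 had no peak in either C13 library. In the genome this held for 5.35% of 42733 such regions, a comparison that was not tested. Of the 24 regions called in the 6 libraries other than C18, 4 had no C18 peak (16.7%, against 9.84% in the genome). No region was absent from C2 alone or from C10 alone, where the genome has 0.625% and 0.221%. The start sites of marker genes of other lineages were counted in the same lists, with no test. Promoters were found for 3 of 5 erythroid genes, 3 of 5 megakaryocyte genes, 4 of 5 lymphoid genes and 3 of 7 genes of stroma and endothelium. The genes without one were not counted. Of the sort marker genes, 3 of 4 had an F-Seq peak on the start site in every library, Itga2b (CD41) and Cd9 in C13 included. An F-Seq peak lay on 0 of 3 erythroid start sites in both C13 libraries, against 2 of 3 in the C2 and C18 libraries and 1 and 2 of 3 in C10. HOMER had peaks on 0 of the 3 in each C13 and each C2 library, 2 in each C18 library and 1 and 2 in C10. Alas2, 1 of the 3, had no peak of either caller in any library. For mast cell and basophil genes an F-Seq peak lay on 1 and 0 of 5 in C13 against 2 to 4 of 5 in the other 6 libraries. There HOMER had peaks on 3 of the 5 in both C13 libraries, against 1 and 2 in C18, 3 and 4 in C2 and 4 in each C10 library. Megakaryocyte start sites had an F-Seq peak at 2 of 3 in both C13 libraries and at 3 of 3 elsewhere, and those of granulocytes and monocytes at 4 and 3 of 5 in C13 and 4 to 5 elsewhere. Lymphoid start sites had an F-Seq peak at 2 and 1 of 4 in C13 and 0 to 1 of 4 elsewhere, with none on Pax5 or Cd3e in any library. HOMER had peaks on 2 of the 4 in each C13 and each C10 library, 1 in each C2 library and 1 and 0 in C18. These included Pax5 in both C13 libraries and in C10 replicate 2. Start sites of stroma and endothelium had an F-Seq peak at 1 or 2 of 3 in every library. What part these start-site counts have in the Kit results was not tested.

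Regions that every library shared also changed their rank in C13, in both directions. Of the 12 regions of the Kit neighbourhood called in all 8 libraries, 7 passed the rank test of C13 against C10 and C18, 5 with a stronger and 2 with a weaker rank. Over all regions tested, 33.2% passed, 13.3% stronger and 19.9% weaker. The median log2 rank difference was -0.41 over the 12 and 0.26 over all regions.

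The largest shift among the 12 towards the top of the C13 list was at +217.0 kb (chr5:75791043-75792717). It had rank 5281 and 6069 in C13, 20651 and 22142 in C10, 63095 and 49198 in C18, and 26965 and 31035 in C2, so that C13 stood above all other libraries and C18 below them. The log2 rank of C13 was lower by 2.61 than the mean of C10 and C18 (log2 -2.61, SE 0.274, limma adjusted p = 6.75e-06), and that of C10 lower than C18 (-1.38, adjusted p = 0.00405). HOMER listed no peak there in either C18 library. At +406.1 kb (chr5:75980559-75981548), just upstream of Kdr in the lncRNA gene Gm32727, the ranks were 10914 and 10878 in C13, 29291 and 36705 in C10, 44248 and 43086 in C2, and 56580 and 78157 in C18. Again C13 stood highest and C18 lowest, with a log2 difference of -2.10 in C13 (SE 0.278, limma adjusted p = 5.2e-05).

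Between Kit and Kdr, neighbouring regions went in opposite directions in C13. At +251.6 kb (chr5:75825321-75827380) C13 had rank 58530 and 58093, far below the 15199 to 20014 of the other 6 libraries (log2 1.70, SE 0.272, limma adjusted p = 0.00026). Only a few kb away, at +255.5 kb (chr5:75829507-75831187), C13 had rank 7974 and 6301, above 13087 and 11269 in C2, 11041 and 10081 in C10, and 35594 and 35213 in C18. The log2 difference of C13 there was -1.45 (SE 0.271, limma adjusted p = 0.000897). Without the C18 libraries it was -0.57, with an adjusted p of 0.153, so the call at +255.5 kb rests on C18. At +260.8 kb (chr5:75833914-75836443) C13 again stood higher, with 10600 and 9538 against 18053 to 29440 in the other 6 libraries (log2 -1.10, SE 0.282, limma adjusted p = 0.00781). This call at +260.8 kb was not checked without the C18 libraries.

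The strongest region outside the genes by its median rank was at +155.9 kb (chr5:75729998-75732589). It had rank 4514 and 6270 in C2, 2667 and 6091 in C18, 9966 and 9110 in C10, and 21339 and 21716 in C13. The C2 and C18 libraries overlapped, both C10 libraries ranked it below them, and C13 lower still. C13 was weaker than the mean of C10 and C18 (log2 rank 1.80, SE 0.333, limma adjusted p = 0.000845), a call kept in all 12 alternatives. C10 was weaker than C18 (1.24, adjusted p = 0.0222), and that call was lost without C18 replicate 1, C10 replicate 1 or C10 replicate 2, and with uncalled regions given a rank (adjusted p up to 0.167).

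**Figure D2:**
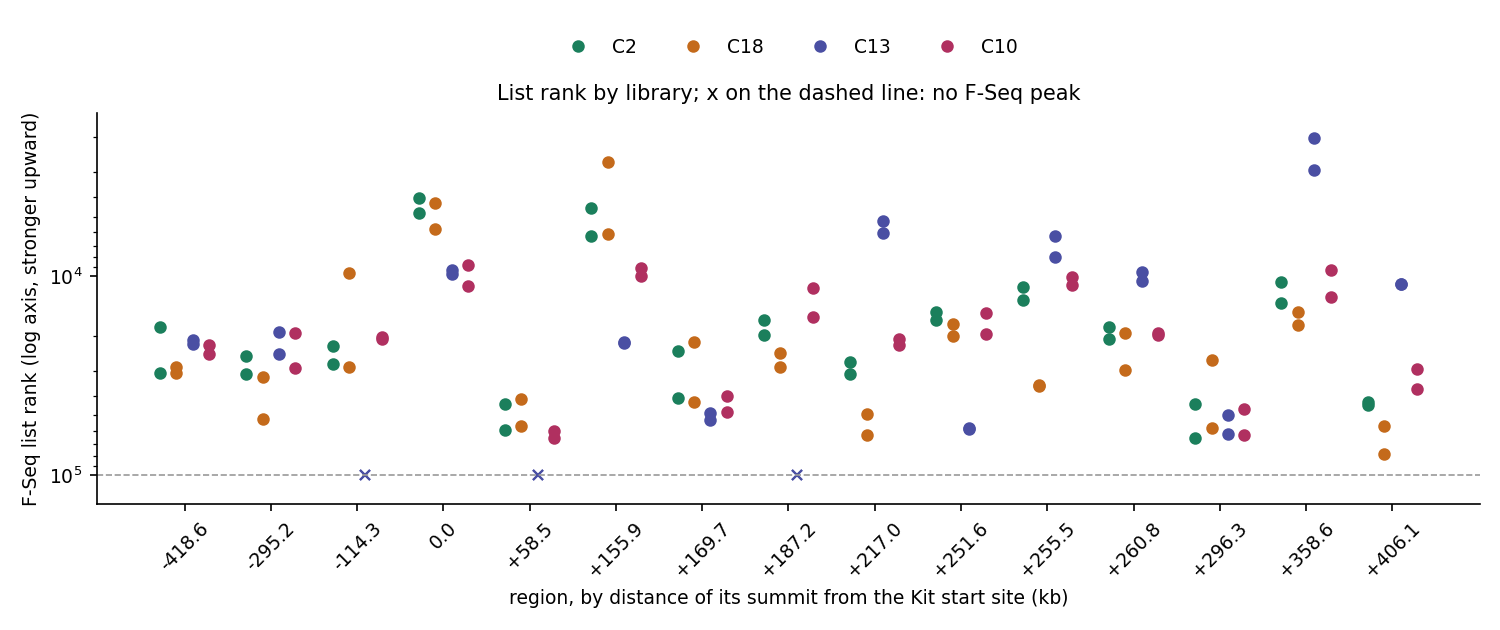
F-Seq list rank (log axis, stronger upward) in each library of the 12 regions of the Kit neighbourhood called in all 8 libraries and of the 3 absent from C13 alone, ordered by distance of the summit from the Kit start site in kb. Points are libraries, and a cross on the dashed line marks both C13 libraries without a peak, at -114.3, +58.5 and +187.2 kb. The C13 points stand above the others at +217.0, +255.5, +260.8, +358.6 and +406.1 kb. They stand below the others at +155.9 and +251.6 kb and, narrowly, at +169.7 kb.

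Against C18, C10 passed the rank test at 5 of the 12 regions, 3 stronger and 2 weaker, where 33.0% of all regions tested passed, 18.5% stronger and 14.6% weaker. Besides the Kit start site and +155.9 kb, which were weaker, these were +217.0, +255.5 and +406.1 kb, stronger in C10 (log2 -1.38, -1.75 and -1.02, limma adjusted p = 0.00405, 0.000799 and 0.0238). The call at +406.1 kb was lost without C18 replicate 2 and without either library of C13 or of C10 (adjusted p up to 0.184). In C2 against C10 and C18, none of the 13 regions of both windows passed, where 0.189% of all regions did (0.121% stronger and 0.0681% weaker), and 2 of the 13 had an unadjusted p under 0.05.

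By covered bases, C13 differed from C10 and C18 at 31 of the 93 regions tested in both windows, where 26.0% of all regions passed. It was higher at 20 (background 16.8%) and lower at 11 (background 9.20%), and the median log2 difference was 0.53 over the 93 and 0.1 over all regions. Of the 11 lower ones, 3 were called in C18 alone and entered the test through C18 only. Another 2 had peaks in C2 and C18 only, and 2 in C2 and C10 only. In these, C13 shared the absence of a peak with C10 or with C18. Of the 20 higher ones, 4 were the regions absent from C18 alone, which had peaks in C10 as well as C13. Another 12 were called in C13 alone. Such a region passes the filter through C13 only and its spread rests on the C13 libraries, so these 12 are a description, with no p given. Of the 10 in the Kit neighbourhood, the highest rank was 47260, in the region at -285.6 kb (chr5:75289088-75289809, 47970 in the other C13 library), and the lowest 95442, at +211.4 kb. The share of regions called in both C13 libraries and nowhere else was 7.63% in the Kit neighbourhood and 4.71% in the genome. HOMER had a peak in both C13 libraries at 9 of the 10, and at 6 of the 10 also in another population.

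The 5 regions that the naming rule took for C13 were all of this kind, at -429.4 kb (chr5:75145305-75145760, before Pdgfra in the lncRNA gene Gm19583), +160.0, +320.6, +329.0 and +419.6 kb. Their C13 ranks ran from 59072 to 93762 and their log2 differences from 1.54 to 1.70. In 4 of the 5, at -429.4, +320.6, +329.0 and +419.6 kb, HOMER listed a peak in at least 1 C10 library too. The exception was +160.0 kb (chr5:75734729-75735240), with HOMER peaks in C13 alone.

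By covered bases, C2 differed from C10 and C18 at 11 of the 93 regions, 6 higher and 5 lower, where 11.5% of all regions passed, 4.91% higher and 6.58% lower. Of the 5 lower, 3 were called in C18 alone and entered the test through C18 only. Of the 6 higher, 4 were the regions absent from C18 alone, which had peaks in C10 as well as C2. In the Kit neighbourhood 1 region was called in both C2 libraries and nowhere else, a share of 0.763% against 0.512% of all regions. It stood at +237.9 kb (chr5:75812479-75813100), with rank 54771 and 72049 and a HOMER peak in 1 of the 2 libraries. It entered the test through C2 alone, so its log2 difference of 1.91 is a description. In a cluster of 3 short regions, those at +228.2 kb (chr5:75802887-75803510) and +230.3 kb (chr5:75804945-75805563) had no peak in C2 and C18. At +228.2 kb the ranks were 50209 and 53204 in C13 and 89722 and 72975 in C10, and at +230.3 kb 47315 and 37865 in C13 and 68243 and 66522 in C10. Both were thus stronger in the 2 C13 libraries than in the 2 of C10, and HOMER found them in the same 4 libraries only. C2 lay below the mean of C10 and C18 there (log2 -0.74 and -0.87, limma adjusted p = 0.0182 and 0.0137). Neither C2 nor C18 had a covered base there, so these values restate C10 against C18 (log2 1.48 and 1.74). They show nothing particular to C2. The region between them, at +229.5 kb (chr5:75804205-75804820), was chosen after its values were seen. It had the opposite pattern in C2 and C13, with rank 71668 and 61102 in C2 and 60484 and 63958 in C10. C18 and C13 had no peak there. C2 covered 366 and 547 bases and C10 527 and 540, so C2 was not set apart from C10. Its log2 difference of 0.80 from the mean of C10 and C18 came with an empty C18 and is a description. The C2 calls at +228.2 and +230.3 kb were lost without either C13 library (adjusted p from 0.0827 to 0.0977), that at +228.2 kb also with the replicate block (0.0596) and that at +230.3 kb with the 50000 strongest peaks. At +230.3 kb the sign turned when peaks within 200 bases were merged (0.42, adjusted p = 0.282).

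Against C18, C10 differed in covered bases at 15 of the 93 regions, 9 higher and 6 lower, where 15.3% of all regions passed, 10.7% higher and 4.56% lower. The 4 regions absent from C18 alone were among the higher ones, led by -288.9 kb (chr5:75285275-75286898). It had rank 47136 and 46711 in C13, 59103 and 34077 in C2, and 75904 and 50402 in C10, and no F-Seq or HOMER peak in C18 (log2 2.81, SE 0.233, limma adjusted p = 0.00119). With the 50000 strongest peaks of each list the difference at -288.9 kb was 0.0 and the call was lost. At -240.7 kb (chr5:75333657-75334504) only C2 (75924 and 89486) and C10 (76113 and 52420) had a peak (C10 against C18 log2 2.18, limma adjusted p = 0.00119). The 6 lower ones included the 3 regions called in C18 alone. Of these, those at -293.3 kb (chr5:75281470-75281906, rank 46436 and 40096) and -197.5 kb (chr5:75377134-75377897, rank 34241 and 14743) were the strongest. Their log2 differences of C10 from C18, -1.83 and -2.18, are descriptions, since both entered the test through C18 alone. In neither did HOMER list a peak in both C18 libraries, and at -293.3 kb its only peak was in C10 replicate 2.

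The F-Seq peak at +130.9 kb (chr5:75705650-75706220), chosen after its values were seen, was among the strongest of C18, at rank 2733 and 3539. It was at 78300 in C2 replicate 2 and absent from the other 5 libraries. HOMER listed no peak there in either C18 library, and the cause of this disagreement between the callers was not tested.

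Inside Kit, the regions shared by only some populations lay in the gene body. At +40.9 kb (chr5:75615613-75616511) C18 had rank 31729 and 37357 and C2 70540 and 75886, while C13 and C10 had no F-Seq or HOMER peak. The region at +7.9 kb (chr5:75582666-75583332) was called in C18 alone, at rank 94376 and 94882 near the end of the lists, with no HOMER peak in any library.

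Kdr, the VEGF receptor gene, carried its strongest peak at the end of the gene and not at its start. The peak at the 3′ end (chr5:75932911-75934727, +358.6 kb from the Kit start site) had rank 2921 and 2017 in C13, 13603 and 10653 in C2, 15185 and 17502 in C18, and 12715 and 9292 in C10. In C13 it was the strongest F-Seq peak of the whole neighbourhood, and both C13 libraries stood above the other 6. Its log2 rank was lower in C13 by 2.46 than the mean of C10 and C18 (log2 -2.46, SE 0.293, limma adjusted p = 2.14e-05, kept in all 12 alternatives). The start site of Kdr (75978455, minus strand) had a weak peak in 6 libraries, at rank 57126 and 62702 in C13, 65692 and 68503 in C10, and 71779 and 72102 in C2, and none in C18. All 6 ranks lay beyond 50000, and the region over the start site passed the covered-bases test in no comparison (limma adjusted p = 0.765, 0.501 and 0.26 for C2, C13 and C10 against C18). In C18 replicate 1 a peak of rank 80041 lay in the same merged region but not on the promoter.

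Pdgfra had no peak on its start site (75152251) in any F-Seq or HOMER list. Its peaks began inside the gene. The first region (chr5:75152907-75155386) had rank 33936 and 70137 in C2, 69162 in C18 replicate 1 with none in replicate 2, 20788 and 18220 in C13, and 66875 and 38480 in C10. The C13 libraries stood highest in that region. The next (chr5:75155428-75157503, -418.6 kb from the Kit start site) was called in all 8 libraries at ranks from 18038 to 30669, and passed the rank test in none of the comparisons (limma adjusted p = 0.445 for C13 and 0.459 for C10 against C18). One more (chr5:75158037-75159154) was called in C13 alone, at 61988 and 49368, although HOMER listed peaks there in C10 replicate 2 too.

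Kitl, the gene of stem cell factor, had few peaks, and most of them in C13 and C10. Its window held 2 and 1 F-Seq peaks in C2, 1 and 2 in C18, 8 and 6 in C13, and 4 and 4 in C10. They covered 7.70 ± 0.952 kb in C13 and 5.82 ± 0.759 kb in C10, against 2.26 ± 0.206 kb in C2 and 1.67 ± 0.425 kb in C18 (SD, n = 2 each, not scaled). All 4 libraries of C13 and C10 lay above all 4 of C2 and C18 in both measures.

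The start-site peak of Kitl (chr10:100014827-100018188) was the 1 region of its window called in every library. Its rank was 7424 and 17089 in C2, 24687 and 18777 in C18, 6906 and 7451 in C13, and 9218 and 13326 in C10. C13 and C10 stood above C18, and C2 replicate 1 lay among the C13 libraries. C13 was stronger than the mean of C10 and C18 by a log2 rank of -1.11 (SE 0.34, limma adjusted p = 0.0212). That call was lost in 5 of 12 alternatives, among them leaving out the C18 libraries, either C13 library or C10 replicate 2, with adjusted p up to 0.193. Its width, not scaled, was 2090 and 2112 bases in C2, 1370 and 1410 in C18, 3286 and 3219 in C13, and 3356 and 3190 in C10. It set C13 and C10 apart from C2 and C18, while C13 and C10 overlapped. After scaling, C10 exceeded C18 in the covered bases of the region (log2 0.71, SE 0.109, limma adjusted p = 0.01), while C13 did not pass against both (0.31, adjusted p = 0.0713). The C10 call was lost without C10 replicate 1 (adjusted p = 0.0633).

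Of the other 7 Kitl regions, none was called in both C2 or both C18 libraries. Those at +16.9 kb (chr10:100032516-100033026, rank 50484 and 91119) and +39.1 kb (chr10:100054657-100055151, rank 83921 and 99690) were called in C13 alone, with HOMER peaks in C13 alone. Both entered the test through C13 alone, so their log2 differences of 1.66 and 1.60 are descriptions. At +15.9 kb (chr10:100030833-100032243) C13 had rank 48147 and 53617, C10 replicate 2 76137 and C2 replicate 1 78862, and the covered-bases difference of C13 did not pass (log2 2.11, SE 0.825, limma adjusted p = 0.137). Upstream of the gene, the region at -19.4 kb (chr10:99996088-99996754) had a peak in C18 replicate 2 and in all 4 libraries of C13 and C10, at rank 58778 and 77304 to 99236. Those at -18.3 and -6.0 kb had peaks in C13 and C10 libraries only, 2 and 3 of them. None of these 3 upstream regions passed a covered-bases test.

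**Figure D3:**
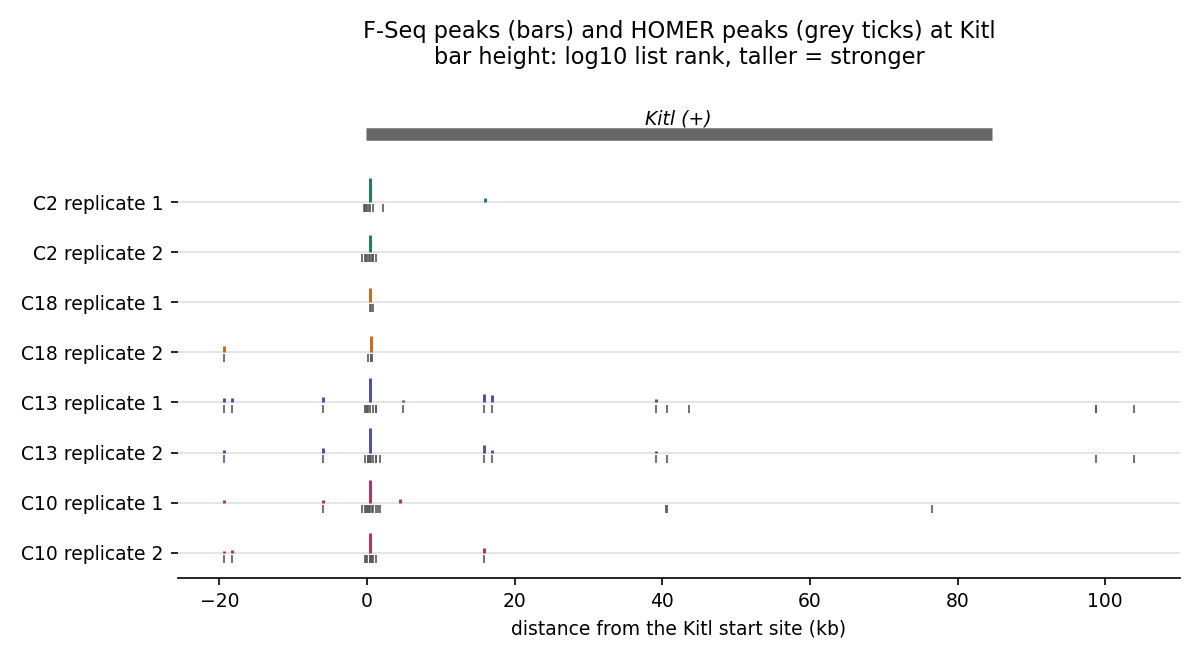
F-Seq peaks (bars, taller for a stronger rank on a log10 scale) and HOMER peaks (grey ticks) of the 8 libraries by distance from the Kitl start site in kb, with the gene drawn above. The start-site bar stands in every library, and the C13 libraries hold 8 and 6 F-Seq peaks against 1 or 2 in the C2 and C18 libraries.

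To compare whole genes, the bases under F-Seq peaks were summed over each gene and 10 kb on both sides and scaled to the mean covered length of the lists. The Kitl locus had 6.73 and 5.85 kb in C13, 5.55 and 3.93 kb in C10, 2.41 and 2.08 kb in C2, and 1.95 and 1.59 kb in C18. Pdgfra had 6.61 and 7.39 kb in C13, 5.73 and 5.07 kb in C10, 3.86 and 5.46 kb in C2, and 2.48 and 2.99 kb in C18. At both genes C13 was highest and C18 lowest, and at Kitl the C2 libraries lay close to C18. Kit had 9.68 and 8.79 kb in C18, 7.84 and 10.23 kb in C13, 5.95 and 10.19 kb in C10, and 8.07 and 6.84 kb in C2. Kdr had 5.30 and 6.29 kb in C10, 5.33 and 5.86 kb in C13, 5.03 and 4.11 kb in C18, and 2.99 and 5.17 kb in C2. At Kdr the C13 and C10 libraries (5.30 to 6.29 kb) lay above those of C2 and C18 (2.99 to 5.17 kb), by less than the C2 libraries differed from each other. At Kit the populations overlapped, and the C10 libraries lay further apart than any population means.

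**Figure D4:**
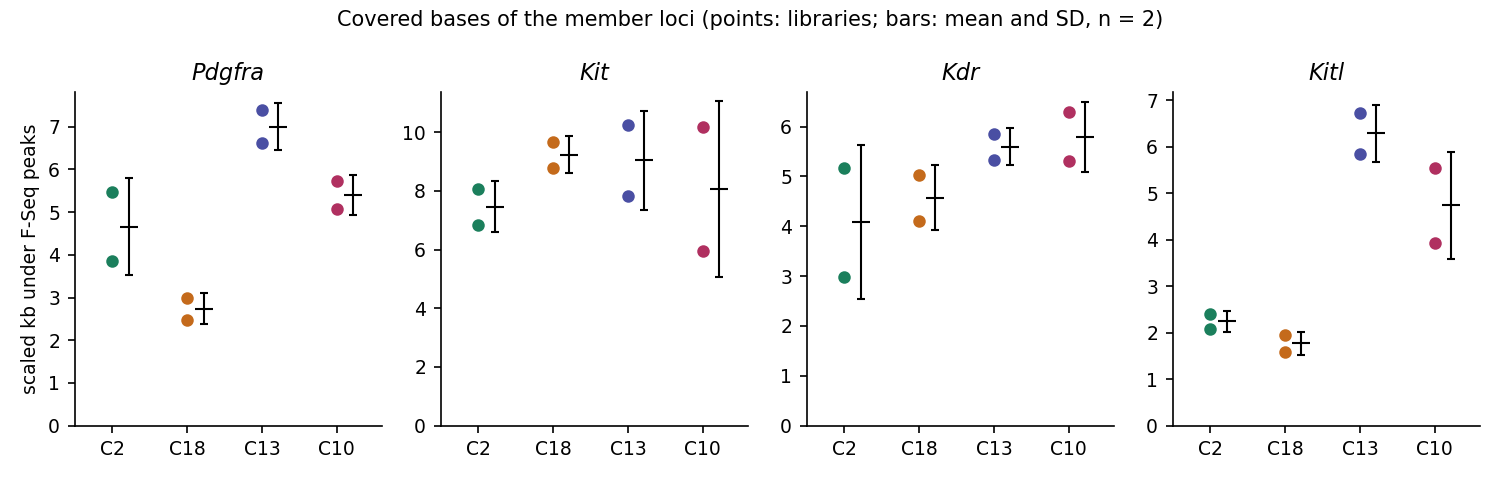
Scaled kb under F-Seq peaks of the loci of Pdgfra, Kit, Kdr and Kitl (gene and 10 kb on each side) in each library (points) with the mean and SD of each population (bars, n = 2). At Kitl all 4 libraries of C13 and C10 (3.93 to 6.73 kb) lie above those of C2 and C18 (1.59 to 2.41 kb), while the populations overlap at Kit.

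In C13 against C10 and C18, 2 of the 4 loci passed, Kitl (log2 1.07, SE 0.193, adjusted p = 0.0257) and Pdgfra (0.83, SE 0.175, adjusted p = 0.0376), both higher in C13 (limma across 18458 loci). Over all loci 6.85% passed, 3.11% higher. Kit (0.08, adjusted p = 0.847) and Kdr (0.12, adjusted p = 0.757) did not pass. Against C10 alone, without the C18 libraries, neither Kitl (0.41, adjusted p = 0.29) nor Pdgfra (0.36, adjusted p = 0.312) passed. Both calls were also lost when either library of C13 or of C10 was left out, and the number of all loci called then fell from 1265 to between 1 and 226.

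Between the populations that differ in CD48, C10 was higher than C18 at Kitl (log2 1.31, SE 0.223, limma adjusted p = 0.0125) and Pdgfra (0.94, SE 0.202, adjusted p = 0.0214), where 22.1% of all loci passed and 7.92% were higher. Kit (-0.24, adjusted p = 0.519) and Kdr (0.33, adjusted p = 0.369) did not pass. The call at Kitl was lost without C10 replicate 1 (adjusted p = 0.0899), and that at Pdgfra without either library of C13 or of C10 (adjusted p from 0.0504 to 0.134). The HOMER lists did not call Kitl in either comparison (C13 0.31, adjusted p = 0.331, and C10 against C18 0.21, adjusted p = 0.523).

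In C2 against C10 and C18 none of the 4 loci passed with limma, nor did any of the 18458, a background of 0%, although 3068 loci had an unadjusted p under 0.05. Pdgfra had a log2 difference of 0.25, Kit -0.19, Kdr -0.36 and Kitl -0.34, none with an unadjusted p under 0.05. Set against C10 alone, without the C18 libraries, Kitl was lower in C2 (log2 -1.0, limma adjusted p = 0.0417).

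The relatives of these receptors and their ligands showed no common direction. Of 17 tested loci of class III and class V receptors and ligands, 1 passed in C13 against C10 and C18, Flt3l, the ligand of FLT3, lower by a log2 difference of -0.64 (limma adjusted p = 0.0301), where 3.74% of all loci were lower. In C10 against C18, where 7.92% of all loci were higher and 14.2% lower, 3 were higher, which were the platelet-derived growth factor gene Pdgfc (0.91), Il34, a ligand of the CSF1 receptor (1.05), and Vegfc (0.67). Another 3 were lower, Vegfb (-0.77), Flt3l (-0.57) and Pdgfa (-0.99), with limma adjusted p from 0.0125 to 0.0442 over the 6. The list median was 0.17 there against -0.15 over all loci, and 0.15 against -0.06 in C13. In C2 none of the 17 passed.

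Of 22 genes that act downstream of KIT, Stat5a alone passed in C13, lower by a log2 difference of -0.57 (limma adjusted p = 0.0279), where 3.74% of all loci were lower. In C10 against C18, 2 were higher, the SRC family kinases Lyn (0.50) and Fyn (0.84), and 8 lower, where 7.92% and 14.2% of all loci were. The lower ones were the phosphatases Ptpn11 (-1.91, limma adjusted p = 0.00581), Ptpn6 (-0.79) and Inpp5d (-0.64), the transcription factors Stat5a (-1.10) and Stat5b (-1.08), and the adaptors Shc1 (-0.81), Grb2 (-0.60) and Sh2b3 (-0.58). Stat5a and Stat5b are neighbours whose loci overlap, so they share peaks. Ptpn11, which encodes SHP2, had 13.44 and 12.07 kb in C18 and 2.96 and 3.58 kb in C10, with C2 (7.50 and 7.69 kb) and C13 (4.17 and 4.94 kb) between them. The median of the 22 was -0.10 in this comparison, against -0.15 over all loci, and none passed in C2.

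The loci whose covered bases followed each gene most closely over the 8 libraries lay on other chromosomes. For Kitl they were Sytl4 and Thoc2 (Pearson r = 0.984 each) and Slc39a10 (0.983), and for Pdgfra Marco (0.989), Lifr and Gpr18 (0.987 each). Kdr had Cyp4a14 (0.974), Supt3 (0.964) and Npy (0.963). Kit had Slc7a10 (0.949), Upk1a (0.881) and Top1mt (0.873), lower than for the other 3 genes. These are descriptions over 8 libraries that share the spread between populations, picked as the highest of 18458 loci, and loci within 1 Mb of a gene were left out.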

How the data were processed

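Peak lists of 8 ATAC-seq libraries were used, called separately in each library on mm10. Per the submitters' processing notes, Bowtie 1.0.0 and HOMER 1.0 were used. The F-Seq version and both callers' settings are not given in the sources used here. Each deposited F-Seq list has 100000 peaks in falling order of the authors' signal, a peak height in that library's read density. The authors' HOMER lists hold 150-base peaks with 2 deposited score columns that carry no label. Both kinds of value served only for ranks within 1 list. Read counts are not in the lists, so the depth of a library is unknown and values carry no counting error.

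Overlapping F-Seq peaks of the 8 lists were merged into regions, and 1 base of overlap sufficed to call a region in a library. Covered bases were scaled to equal total covered length (factors 0.885 to 1.426) and tested as log2(bases + 200), for regions and for protein-coding loci (gene and 10 kb on each side, RefSeq, GRCm38.p6) covered in at least 2 libraries. Ranks were tested as log2 rank in regions called in all 8. Each test was 1 limma fit (3.58.1, R 4.3.3, eBayes with trend) of 4 group means, with Benjamini-Hochberg adjustment over all features and a threshold of 0.05; the scripts were tested on simulated data. C2 and C13 were each set against the mean of C10 and C18, and C10 against C18, so the contrasts share libraries. Over all loci the median differences were 0.06, -0.06 and -0.15 (log2). Described were the regions over start sites, the 5 of each window with the strongest median rank, and up to 5 past the threshold per fit and contrast with the smallest p. The members and gene lists were chosen with earlier results of these data known. RefSeq promoters were found for 13 of 17 and 17 of 22 genes of the pathway lists. Alternatives concerned the caller, scaling, gene extension, pseudocount, filters, merging, the C18 libraries, the replicate number and each library left out.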

Additional observations from a re-analysis of the deposited data

How the results depend on the processing

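Of the locus results, the calls of Kitl and Pdgfra changed most. Without the C18 libraries, so against C10 alone, the log2 difference of C13 was 0.41 at Kitl and 0.36 at Pdgfra, neither called, and -0.04 at Kdr, while C2 differed by -1.0 at Kitl, now called, and by -0.22 at Pdgfra. In the HOMER lists Kitl was called neither in C13 (0.31) nor in C10 against C18 (0.21), with 0.05 in C2; Kdr was called in C10 against C18 (0.87), with -0.03 in C13 and 0.36 in C2, and Kit was at 0.18 in C10 against C18. With the 50000 strongest peaks of each list Kit was called in C13 (1.01) and in C10 against C18 (-1.17), while the calls were lost for Kitl (0.53 and 0.71) and Pdgfra (1.42 and 1.22). With the gene body alone Pdgfra lost its calls (0.83 and 0.76), as it did when peaks were counted (0.56 and 0.29). Counting peaks gave -0.28 at Kit and -0.16 at Kdr in C13, and 0.79 at Kitl in C10 against C18, no longer called. Without scaling Kit was at 0.21 in C10 against C18. The cause of these changes was not tested.

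When each library was left out in turn, Kitl ran from 0.95 to 1.19 in C13 and from 1.07 to 1.55 in C10 against C18, and Pdgfra from 0.75 to 0.91 and from 0.81 to 1.06. Kit, never called there, ran from -0.37 to 0.0 in C2, from -0.11 to 0.27 in C13 and from -0.62 to 0.14 in C10 against C18, and Kdr from -0.74 to 0.01 in C2. Regions of both windows called by covered bases ran from 2 to 15 in C2 and from 1 to 36 in C13, the lowest without either C13 library, and by rank from 2 to 6 in C10 against C18, the lowest without either C10 library.

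Covered-bases calls numbered 5 in C2 with a pseudocount of 1000 bases. They numbered 5, 19 and 6 in C2, C13 and C10 against C18 with the 50000 strongest peaks, and 19 in C13 without the C18 libraries. Rank calls numbered 1, 41 and 12 when uncalled regions were ranked just past the end of the list, which admits more regions, and 2 in C2 without the C18 libraries. For none of these alternatives, nor for libraries left out, is the share over all regions given. The counts therefore show how the calls moved, and cannot be set against the backgrounds above. The region at -288.9 kb changed sign in C2 without the C18 libraries (-0.29), and that at +230.3 kb with peaks within 200 bases merged (0.42).

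Bases under peaks of the Kit neighbourhood were 14.1, 4.24, 22.4 and 21.7 kb in C2, C18, C13 and C10 with the HOMER lists, and 23.4, 18, 31.1 and 22.3 kb with the 50000 strongest F-Seq peaks; at Kitl they were 1.2, 0.533, 2.64 and 1.89 kb, and with the strongest peaks 3.89 kb in C13 and 3.27 kb in C10. With at least 50% of a region required to be covered, 22, 12, 53 and 29 regions of the Kit neighbourhood were called in both libraries, in place of 39, 28, 58 and 39.

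Over all loci, same-numbered libraries deviated together little (correlations of deviations from -0.01 to 0.12). Whether they shared a batch was not tested. With the replicate block the covered-bases calls of both windows in C2 fell from 11 to 4.

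The counts of all loci called, 0, 1265 and 4087, also moved. With 1 library left out they ran from 0 to 606 in C2, from 1 to 3495 in C13 (lowest without C13 replicate 2) and from 0 to 5760 in C10 against C18 (0 without C10 replicate 1). They were 4364 in C13 and 8930 in C10 against C18 with HOMER, 145 in C2 and 2029 in C13 with the 50000 strongest peaks, 10 in C2 and 2223 in C10 against C18 with gene bodies alone, 397 and 1164 there when peaks were counted, and 1446 in C2 without C18. Depth, which the lists do not hold, limits every absence stated here: no F-Seq peak means none among the 100000 strongest of that library.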
